A study of Mus musculus with 10 samples.

Results

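The IL-1 family genes described here are 10 cytokine and receptor genes, *Il1a*, *Il1b*, *Il1rn*, *Il1r1*, *Il1r2*, *Il1rap*, *Il18*, *Il18bp*, *Il33* and *Il1rl1*, chosen by name from the 45706 genes counted in mouse melanoma tumors. Of the 10 genes, 9 passed the filter on low counts, and the remaining member, *Il1a*, was at or near zero reads throughout. The tumors were collected on day 4 after injection of *Braf* V600E-driven melanoma cells into C57BL/6 mice aged 8 weeks, and bulk RNA was read at transcript 3′ ends. There were 4 *Ptgs*+/+ tumors (cells labelled wild type) and 3 *Ptgs*-/- tumors (cells lacking *Ptgs1* and *Ptgs2* after CRISPR/Cas9 editing), all from untreated mice. A further 3 *Ptgs*-/- tumors came from NK cell-depleted mice, which the labels say received anti-NK1.1 (clone PK136, 200 µg) and anti-asialo GM1 (30 µg) on day 0 and day 2, whereas the study's methods give another schedule for depletion experiments in general. All groups share the parental melanoma line, and there was no *Ptgs*+/+ group with NK cell depletion. Whether the edited cells were 1 clone or several is not given in the sources used here, and nothing in the labels says whether each tumor came from a separate mouse, so the p-values measure the spread between these tumors.

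IL-1 family cytokines are early alarm signals of inflamed and injured tissue. IL-1α and IL-1β bind IL-1R1, which then recruits the coreceptor IL-1RAP and signals through MyD88 to NF-κB, while the antagonist IL-1RN and the decoy receptor IL-1R2 hold this signal down. IL-33 uses the receptor ST2, encoded by *Il1rl1*, with the same coreceptor, and IL-18 has receptor chains of its own and a soluble inhibitor, IL-18BP. *Ptgs1* and *Ptgs2* encode the cyclooxygenases COX-1 and COX-2, which start prostaglandin synthesis.

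Levels are given as CPM, reads of a gene scaled to a library of fixed size after correction by TMM library factors. The 10 libraries held 8150556 to 12839174 counts, and 3 counts, taken as the floor of detection, equal 0.238 to 0.363 CPM. Fold changes are log2 values from edgeR, tested with its quasi-likelihood method and adjusted after Benjamini and Hochberg over 14550 genes, and a gene passed at an adjusted p of 0.05 or less. *Ptgs2* averaged 258.2 ± 112 CPM (SD, n = 4) in *Ptgs*+/+ tumors, 42.2 ± 27.4 (n = 3) in *Ptgs*-/- tumors and 44.7 ± 4.48 (n = 3) with NK cell depletion. *Ptgs1* averaged 155.1 ± 19.3, 91.9 ± 14.4 and 96.1 ± 1.94 CPM. Both were lower in *Ptgs*-/- than in *Ptgs*+/+ tumors (adjusted p = 0.00229 for *Ptgs2* and 0.00202 for *Ptgs1*). Host cells in these tumors carry both genes, and a 3′ read does not show the edited site, so these levels do not by themselves check the genotype. The 12 NK cell markers summed to 109.9 to 202.7 CPM in *Ptgs*-/- tumors and 12.1 to 13.6 CPM after depletion. Of the 10 melanocytic markers, *Tyr*, *Tyrp1*, *Mlana* and *Slc45a2* were at or under the floor in every tumor, so these defining pigment genes of melanoma were not detected at this depth.

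The bases before the transcription starts of *Il1b* and *Il1rl1*, the members that differed most between tumor genotypes, and of *Il18bp*, the member that differed most in the opposite direction, are shown from RefSeq (GRCm38.p6), 5′ to 3′ on the strand of the gene. Each window holds 250 bases ending just before the start, and capitals mark matches on either strand to the motifs listed after them.

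Il1b, chr2:129371140-129371389, minus strand: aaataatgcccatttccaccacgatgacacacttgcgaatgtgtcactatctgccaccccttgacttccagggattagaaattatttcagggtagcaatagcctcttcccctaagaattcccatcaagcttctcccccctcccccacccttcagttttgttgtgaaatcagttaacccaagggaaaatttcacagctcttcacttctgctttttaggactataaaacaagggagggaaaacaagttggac
Il1rl1, first start, chr1:40429320-40429569, plus strand: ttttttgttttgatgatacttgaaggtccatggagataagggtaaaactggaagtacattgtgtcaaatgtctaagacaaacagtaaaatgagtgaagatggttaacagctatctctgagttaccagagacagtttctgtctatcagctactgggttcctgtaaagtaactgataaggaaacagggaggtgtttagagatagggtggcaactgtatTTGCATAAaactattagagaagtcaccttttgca
Il1rl1, second start, chr1:40439379-40439628, plus strand: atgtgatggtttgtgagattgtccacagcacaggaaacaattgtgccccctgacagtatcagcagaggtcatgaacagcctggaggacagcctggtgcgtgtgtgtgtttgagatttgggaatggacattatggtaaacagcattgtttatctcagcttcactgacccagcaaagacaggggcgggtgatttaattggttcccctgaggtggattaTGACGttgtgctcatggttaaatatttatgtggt
Il18bp, chr7:102018233-102018482, minus strand: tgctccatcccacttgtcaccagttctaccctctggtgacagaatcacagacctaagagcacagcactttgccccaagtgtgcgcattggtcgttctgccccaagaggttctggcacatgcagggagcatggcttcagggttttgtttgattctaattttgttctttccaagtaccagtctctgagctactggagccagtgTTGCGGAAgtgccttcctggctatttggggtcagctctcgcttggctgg

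The motifs searched were NF-κB (GGG and CC with any 5 bases between), CRE (TGACGTCA) and its shorter core (TGACG, which also lies inside the full CRE), AP-1 (TGANTCA), C/EBP (TTNNGCAA) and GAS (TTCNNNGAA). Of 32851 windows of all genes, 45.8% held the NF-κB letters, 1.55% the CRE, 17.8% the shorter core, 6.75% AP-1, 9.56% C/EBP and 7.02% GAS. The *Il1b* window held none of these letters. The first *Il1rl1* window held the C/EBP letters and the second the shorter CRE core, each starting 34 bases before its start. The *Il18bp* window held the C/EBP letters 49 bases before the start. These matches describe letters only. The 10 members had 15 windows in all, and the window of the coreceptor gene *Il1rap* held the most matches, 6, all to the NF-κB letters and several of them overlapping.

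In the comparison of *Ptgs*-/- with *Ptgs*+/+ tumors, which asks how tumors differ when their cells lack both cyclooxygenases, 5 of the 9 members tested passed, against 23.1% of all genes. *Il1b*, *Il1rl1* and *Il1r1* were lower in *Ptgs*-/- tumors and *Il18* and *Il18bp* were higher, while 11% of all genes were lower and 12.1% higher. Only *Il1b* and *Il1rl1* among the 9 also reached the study's size threshold, a log2 change of 1.5 or more either way, which 4.15% of all genes met together with the adjusted p. CPM values of the groups did not overlap for 5 of the 9 members, the same 5 genes, against 30.5% of all genes. The median log2 fold change of the 9 members was -0.50, and that of all genes tested was -0.01.

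**Figure D1:**
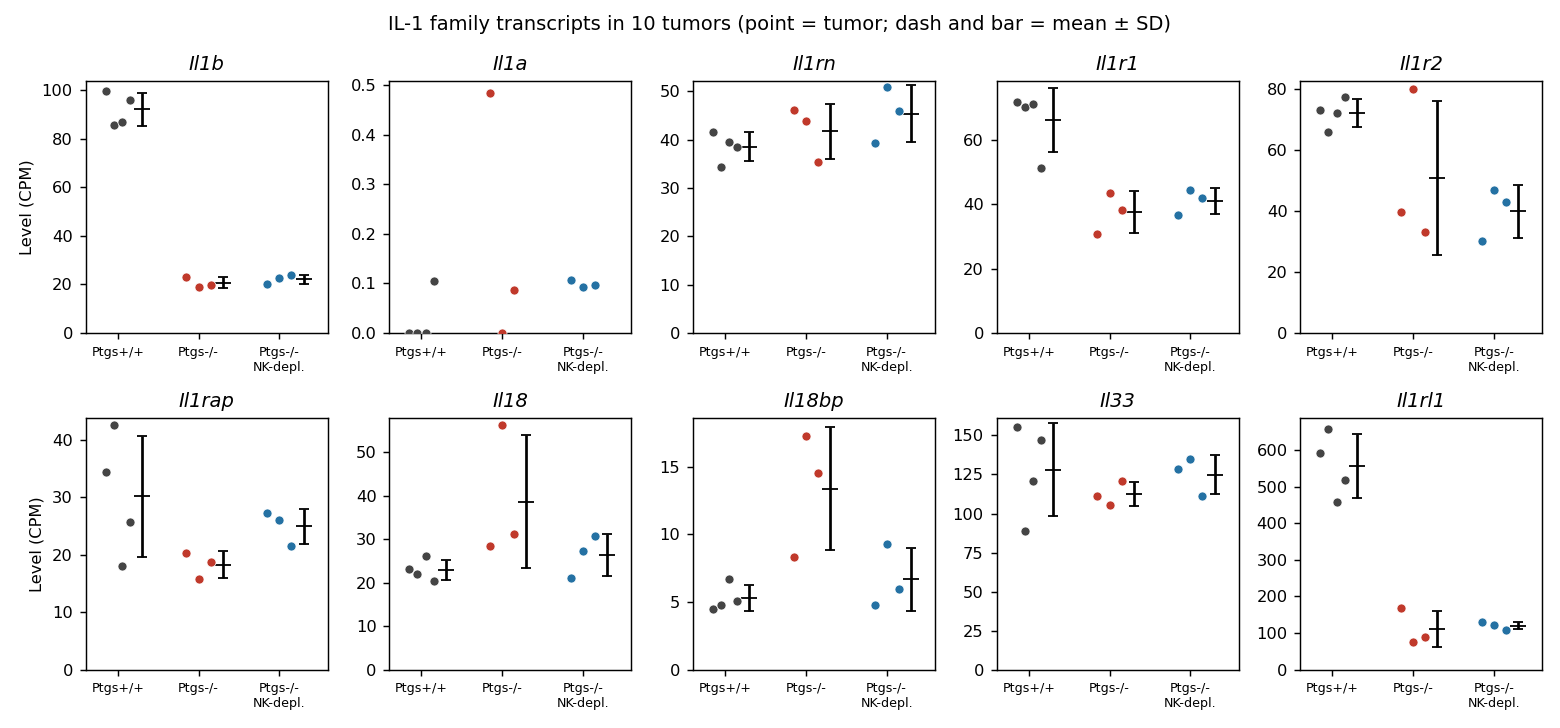
Level of each of the 10 IL-1 family genes in CPM (vertical axes, linear and starting at 0) in 4 *Ptgs*+/+, 3 *Ptgs*-/- and 3 NK cell-depleted *Ptgs*-/- tumors. Each point is a tumor, and the dash and bar are the mean ± SD, not drawn for *Il1a*, which was at the floor in 9 of 10 tumors. *Il1b* sits between 85.7 and 99.6 CPM in *Ptgs*+/+ tumors and between 18.9 and 23.8 CPM in the 6 other tumors.

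*Il1b*, on chromosome 2 (129364570 to 129371139, minus strand, GRCm38), encodes the secreted cytokine IL-1β, which is made mainly by activated myeloid cells. Its CPM was 99.6, 85.7, 86.9 and 95.8 in the *Ptgs*+/+ tumors, 23.2, 18.9 and 19.9 in the *Ptgs*-/- tumors, and 20.2, 22.5 and 23.8 in the *Ptgs*-/- tumors of NK cell-depleted mice. Every *Ptgs*-/- tumor, depleted or not, was below every *Ptgs*+/+ tumor, and the 2 *Ptgs*-/- groups overlapped. *Il1b* fell by 2.15 on the log2 scale in *Ptgs*-/- tumors (SE 0.12, 4.45-fold, adjusted p = 6.13e-06, edgeR) and had the smallest p of the 14550 genes tested. The values were even within groups, with a coefficient of variation of 7.37% in *Ptgs*+/+ and 11% in *Ptgs*-/- tumors. Within the libraries that share the first of the 2 codes in the sample titles (3 *Ptgs*+/+ and 2 *Ptgs*-/- tumors), the fall was 2.07 (adjusted p = 0.000379). What these codes stand for is not given in the sources used here, and the second code holds 1 tumor of each genotype, from untreated mice. All 3 depleted tumors carry the first code, so the comparisons with that group also differ in code. In bulk tumors, fewer cells of a type and less RNA per cell cannot be told apart.

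*Il1a*, the gene of the cell-associated agonist IL-1α, lies beside *Il1b* on the same strand. It had 0 counts in 3 *Ptgs*+/+ tumors and 1 count in the other. The *Ptgs*-/- tumors had 4, 0 and 1 counts, and those of depleted mice had 1 each. Only 1 tumor was above the floor, so no difference was detectable at this depth.

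*Il1rn*, on chromosome 2 (24336853 to 24351494), encodes the receptor antagonist, which occupies IL-1R1 without signaling. Its CPM was 41.6, 34.4, 39.5 and 38.5 in *Ptgs*+/+ tumors, 46.1, 43.8 and 35.3 in *Ptgs*-/- tumors, and 39.2, 50.9 and 45.9 after NK cell depletion. The 3 groups overlapped. The log2 fold change between genotypes was 0.12, with a 95% interval of -0.17 to 0.40 (adjusted p = 0.563), an interval that does not reach the change of *Il1b*.

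The balance of antagonist to agonist was read within each tumor, as the log2 ratio of *Il1rn* to *Il1b* counts with 0.5 added to each. Depth cancels in this ratio, and only its differences between groups are read. It was -1.26, -1.32, -1.14 and -1.31 in *Ptgs*+/+ tumors, 0.99, 1.21 and 0.83 in *Ptgs*-/- tumors, and 0.95, 1.18 and 0.94 in depleted mice. Reads of *Il1b* outnumbered those of *Il1rn* in all 4 *Ptgs*+/+ tumors, and the reverse held in all 6 *Ptgs*-/- tumors. The mean was 1.01 ± 0.19 (SD, n = 3) in *Ptgs*-/- and -1.26 ± 0.08 (n = 4) in *Ptgs*+/+ tumors, a 4.81-fold difference (two-sided exact permutation p = 0.0571, the smallest that 3 against 4 tumors allow; 0.171 after adjustment over 9 ratio tests). The ratio in depleted mice was 4.86-fold that of *Ptgs*+/+ tumors with the same exact permutation p.

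The receptors of IL-1 lie in a cluster on chromosome 1. *Il1r1* (40225080 to 40317257, plus strand) encodes the signaling receptor, which many stromal, endothelial and immune cells carry. Its CPM was 71.9, 70.2, 71.4 and 51.4 in *Ptgs*+/+ tumors, 30.9, 43.7 and 38.4 in *Ptgs*-/- tumors, and 36.7, 44.6 and 41.9 after depletion. All 6 *Ptgs*-/- tumors were below all 4 *Ptgs*+/+ tumors, the lowest of which stood apart from its group. *Il1r1* fell by 0.81 in *Ptgs*-/- tumors (SE 0.15, adjusted p = 0.00338, edgeR). The first-code libraries gave -0.90 (adjusted p = 0.00919).

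*Il1r2* (40074079 to 40125231), the gene of the decoy receptor that binds IL-1 without signaling, was steady at 73.0, 65.9, 72.1 and 77.1 CPM in *Ptgs*+/+ tumors. It was 39.6, 79.7 and 33.2 in *Ptgs*-/- tumors, and 30.1, 46.7 and 42.9 in depleted mice. A single *Ptgs*-/- tumor, replicate 2, was the highest of all 10. The log2 fold change was -0.50 (SE 0.26, adjusted p = 0.187), and without that tumor it was -0.97 (adjusted p = 0.006). The same tumor had the highest summed macrophage markers of all 10 tumors (7054 CPM) and, within its group, the highest mast cell and basophil markers (251 CPM, against 48.5 and 116.7). Depleted replicates 2 and 3 had higher mast cell and basophil sums (271.1 and 258.2 CPM). The neutrophil marker sum of that *Ptgs*-/- tumor, 83.6 CPM, lay between those of replicate 1 (56.4) and replicate 3 (118.2). The part of these cells in the result was not tested. The log2 ratio of *Il1r2* to *Il1r1* was 0.34 ± 0.54 in *Ptgs*-/- and 0.13 ± 0.31 in *Ptgs*+/+ tumors (exact permutation p = 0.514).

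*Il1rap*, on chromosome 16 (26581704 to 26730117), encodes the coreceptor shared by the IL-1 and IL-33 receptors. Of the 9 members tested it varied most among the *Ptgs*+/+ tumors, at 34.4, 42.5, 18.1 and 25.7 CPM. It was 20.3, 15.7 and 18.8 in *Ptgs*-/- tumors and 27.3, 26.0 and 21.5 after depletion. The *Ptgs*-/- values overlapped the *Ptgs*+/+ range through 1 low *Ptgs*+/+ tumor, replicate 3. The log2 fold change was -0.72 (SE 0.24) and did not pass (adjusted p = 0.0528, edgeR), and without that tumor it was -0.90 (adjusted p = 0.00523). DESeq2 on the same libraries gave -0.72 and an adjusted p of 0.0286. In all, *Il1rap* passed in 4 of 20 settings of the processing, with changes of -0.90 to -0.52 and an adjusted p of up to 0.189.

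*Il33*, on chromosome 19 (29925114 to 29960718), encodes a nuclear alarmin of stromal and barrier cells that is released on damage. It was 155.2, 89.1, 120.8 and 147.2 CPM in *Ptgs*+/+ tumors, 111.3, 105.4 and 120.9 in *Ptgs*-/- tumors, and 128.7, 135.1 and 111.0 in depleted mice. All 3 groups overlapped, with a log2 fold change between genotypes of -0.19 and a 95% interval of -0.55 to 0.18 (adjusted p = 0.458).

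*Il1rl1*, the gene of the IL-33 receptor ST2 (chromosome 1, 40429570 to 40465415, plus strand), differed in level where its ligand gene did not pass. It was 592.9, 658.0, 456.6 and 516.5 CPM in *Ptgs*+/+ tumors, 168.2, 75.9 and 89.5 in *Ptgs*-/- tumors, and 129.3, 123.0 and 109.2 after depletion. The lowest *Ptgs*+/+ tumor was above the highest *Ptgs*-/- tumor, and the depleted tumors lay inside the *Ptgs*-/- range. *Il1rl1* fell by 2.32 in *Ptgs*-/- tumors (SE 0.25, 5.01-fold, adjusted p = 0.000158, edgeR), with rank 97 by p. In the first-code libraries it fell by 2.19 (adjusted p = 0.0038). The gene gives rise to a membrane receptor and to a soluble decoy form with different ends, and counts per gene do not separate them.

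*Il18*, on chromosome 9 (50554827 to 50581840), encodes a cytokine that activates NK and T cells. It was 23.2, 22.0, 26.0 and 20.5 CPM in *Ptgs*+/+ tumors, 28.6, 56.2 and 31.3 in *Ptgs*-/- tumors, and 21.2, 27.4 and 30.7 in depleted mice. All *Ptgs*-/- tumors were above the *Ptgs*+/+ range, by a wide margin only in replicate 2. *Il18* rose by 0.76 (SE 0.22, adjusted p = 0.0285, edgeR), and without replicate 2 the change was 0.40 (adjusted p = 0.121). The first-code libraries gave 0.88 (adjusted p = 0.0531), and the call was also lost without *Ptgs*+/+ replicate 1 (adjusted p = 0.0551), 2 (0.0699) or 4 (0.0648). Replicate 2 was also the tumor with the highest macrophage marker sum, whose part in the result was not tested.

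*Il18bp*, on chromosome 7 (102014885 to 102018690, minus strand), encodes the soluble protein that binds and blocks IL-18. It was 4.52, 4.82, 6.73 and 5.12 CPM in *Ptgs*+/+ tumors, 8.35, 17.3 and 14.5 in *Ptgs*-/- tumors, and 4.82, 9.28 and 5.96 in depleted mice. All *Ptgs*-/- tumors exceeded all *Ptgs*+/+ tumors. *Il18bp* rose by 1.34 (SE 0.28, 2.53-fold, adjusted p = 0.00564, edgeR) and by 1.30 in the first-code libraries (adjusted p = 0.0425). Its gene overlaps *Numa1* on the opposite strand, which had 1042 to 2033 counts per tumor, and whether the counting used strand is not given in the sources used here, so some *Il18bp* counts may be of *Numa1*. The log2 ratio of inhibitor to cytokine, *Il18bp* to *Il18*, was -1.77, -1.70 and -1.10 in *Ptgs*-/- tumors and -2.35, -2.17, -1.94 and -1.99 in *Ptgs*+/+ tumors. These did not overlap (1.51-fold, exact permutation p = 0.0571, the smallest possible, and 0.171 after adjustment).

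**Figure D2:**
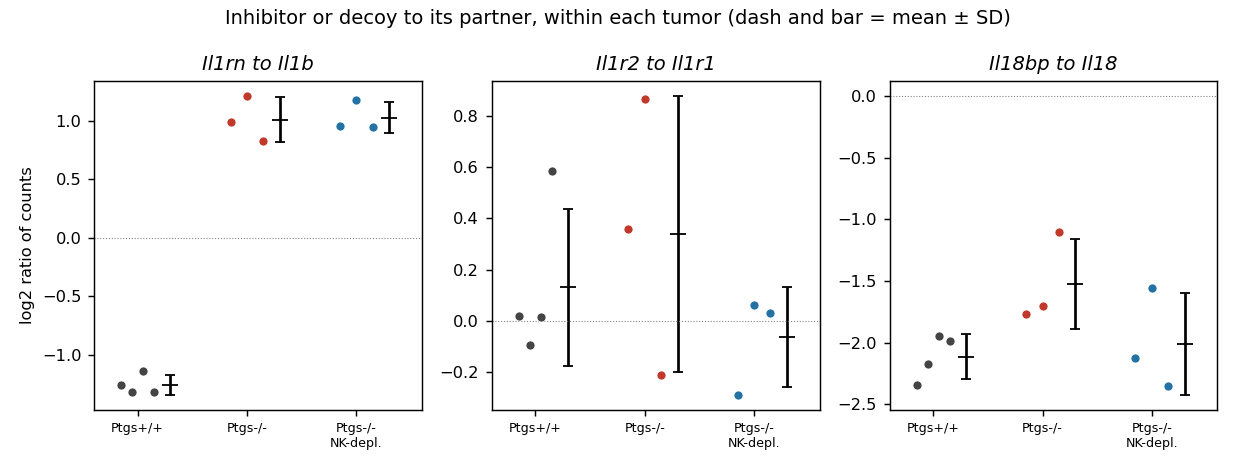
Log2 ratio of read counts (vertical axes, zero marked by a dotted line) of inhibitor or decoy to its partner within each tumor, for *Il1rn* to *Il1b*, *Il1r2* to *Il1r1* and *Il18bp* to *Il18*. Points are tumors, and the dash and bar are the mean ± SD; the first ratio lies between -1.32 and -1.14 in *Ptgs*+/+ tumors and between 0.83 and 1.21 in the 6 *Ptgs*-/- tumors, whereas the second overlaps among groups.

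The comparison of *Ptgs*-/- tumors between untreated and NK cell-depleted mice asks which differences depend on NK cells in the host. No member passed, against 1.44% of all genes (edgeR). The smallest unadjusted p of the 9 members was that of *Il18bp* (1.0, unadjusted p = 0.00618, adjusted p = 0.191, edgeR), at rank 471 of 14550 genes. *Il18* came next (0.55, unadjusted p = 0.039, adjusted p = 0.412) at rank 1374, and both were higher in mice with NK cells. DESeq2 likewise passed 0 members. Leaving out *Ptgs*-/- replicate 1, the lowest of its group in *Il18bp*, gave 1.24 for that gene (adjusted p = 0.0344). This was the 1 setting of 20 in which *Il18bp* passed here, with changes of 0.79 to 1.31 and an adjusted p of up to 0.593. *Il1rap* was the 1 member of the 9 tested whose groups did not overlap, against 17.6% of all genes, with a log2 fold change of -0.45 and a 95% interval of -1.02 to 0.12.

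For the members that fell with loss of *Ptgs*, the intervals of the NK cell comparison were narrow for *Il1b* and wider for the receptors. The log2 difference was -0.10 for *Il1b* (95% interval -0.37 to 0.16), -0.12 for *Il1rl1* (-0.66 to 0.43) and -0.12 for *Il1r1* (-0.48 to 0.23). The *Il1b* interval is small beside its fall of 2.15 between genotypes. The log2 ratio of *Il1rn* to *Il1b* was 1.01 ± 0.19 with NK cells and 1.03 ± 0.13 without (n = 3 each, exact permutation p = 1, where 0.1 is the smallest possible).

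The *Ptgs*-/- tumors of NK cell-depleted mice were then set against the *Ptgs*+/+ tumors of untreated mice, which differ in both genotype and depletion. Of the 9 members, 3 passed, all lower, against 12.5% of all genes in either direction and 5.87% lower. They were *Il1b*, which fell by 2.05 (SE 0.12, adjusted p = 8.91e-06), *Il1rl1*, which fell by 2.21 (SE 0.25, adjusted p = 0.000201), and *Il1r1*, which fell by 0.69 (SE 0.15, adjusted p = 0.0131, edgeR). *Il1b* again had the smallest p of all genes, and the call on *Il1r1* was lost without depleted replicate 1 (adjusted p = 0.0664) or 3 (0.0522). This comparison shares its *Ptgs*+/+ tumors with the first, so the agreement in sign is not separate evidence. The log2 fold change of *Il1r2* was -0.85 (adjusted p = 0.0552), with no overlap between groups, and passed without any 1 of the *Ptgs*-/- tumors of untreated mice (adjusted p = 0.00512 to 0.0462) and with DESeq2 (0.0151). In all, 4 of the 9 members did not overlap, against 26.6% of all genes. *Il18* (0.21, 95% interval -0.28 to 0.69) and *Il18bp* (0.34, 95% interval -0.29 to 0.97) did not pass. Whether their changes from *Ptgs*+/+ differ between the 2 *Ptgs*-/- groups is the NK cell comparison itself, in which neither passed.

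**Figure D3:**
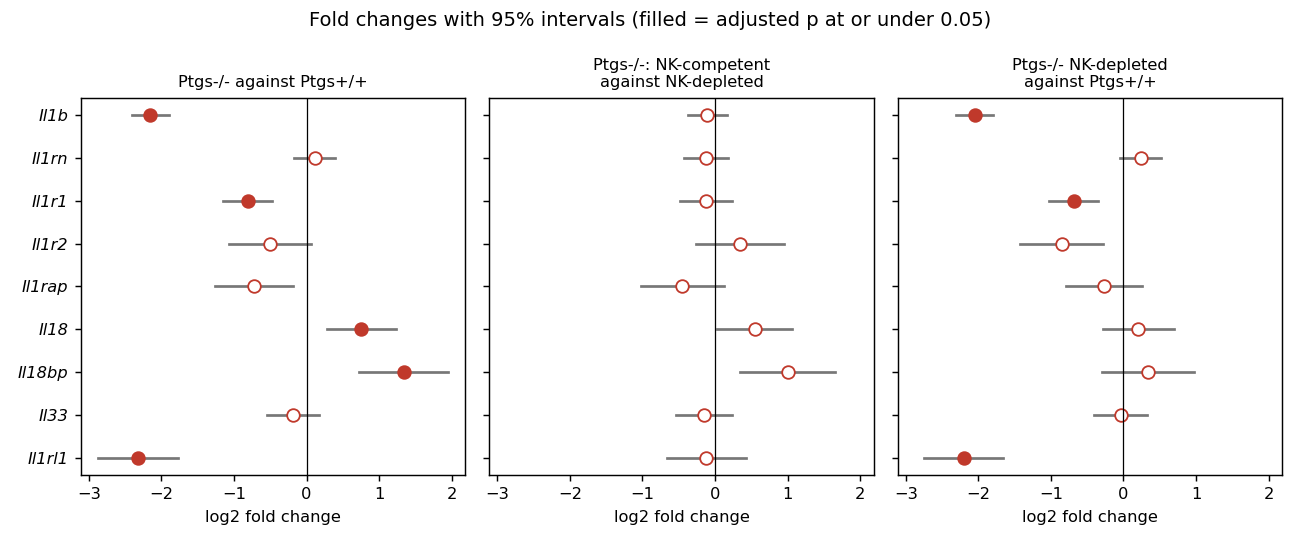
Log2 fold changes (horizontal axis) of the 9 members tested in the 3 comparisons, with 95% intervals as lines; filled points passed at an adjusted p of 0.05 or less in edgeR's quasi-likelihood test. *Il1b* and *Il1rl1* lie beyond -2 in both comparisons with *Ptgs*+/+ tumors, and no point is filled in the NK cell comparison.

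A group of 6 receptor genes lies in 1 stretch of 478 kb on chromosome 1, all on the plus strand, in the order *Il1r2*, *Il1r1*, *Il1rl2*, *Il1rl1*, *Il18r1*, *Il18rap*. Between genotypes 4 of the 6 passed, against 23.1% of all genes. *Il1r1* fell, its neighbor *Il1rl2* (the IL-36 receptor) rose by 0.79 (adjusted p = 0.0223, past in 16 of 20 settings), *Il1rl1* fell, and *Il18r1* (the binding chain of the IL-18 receptor), whose annotated start follows the end of *Il1rl1* directly, rose by 1.51 (adjusted p = 0.00656). *Il18rap*, the second chain of the IL-18 receptor, was at 0.42 and *Il1r2* was at -0.50, and neither passed. The call on *Il1rl2* was lost without *Ptgs*+/+ replicate 2, without *Ptgs*-/- replicate 1 or 2, and in a fit of the compared groups only, with an adjusted p of up to 0.11.

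*Il18r1* was the gene of the cluster that passed in the NK cell comparison, at 1.78 higher in mice with NK cells (SE 0.36, adjusted p = 0.0333). Its CPM was 2.62, 2.78, 3.59 and 3.66 in *Ptgs*+/+ tumors, 4.36, 10.0 and 12.4 in *Ptgs*-/- tumors, and 2.78, 1.86 and 3.22 in depleted mice. All *Ptgs*-/- tumors of untreated mice were above the 7 others. NK cells express this receptor, and the NK cell marker sums moved with it; their part in the result was not tested. The difference was 1.49 to 2.10 over 20 settings, of which 9 passed. The call was lost in the first-code libraries (adjusted p = 0.186) and without any 1 of the depleted tumors or of *Ptgs*-/- replicates 2 and 3 (adjusted p = 0.0826 to 0.17). It was also lost with the code as a term, in a fit of the compared groups only and with at least 10 counts in every library. Leaving out *Ptgs*+/+ replicate 2 or 4 lost it as well.

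**Figure D4:**
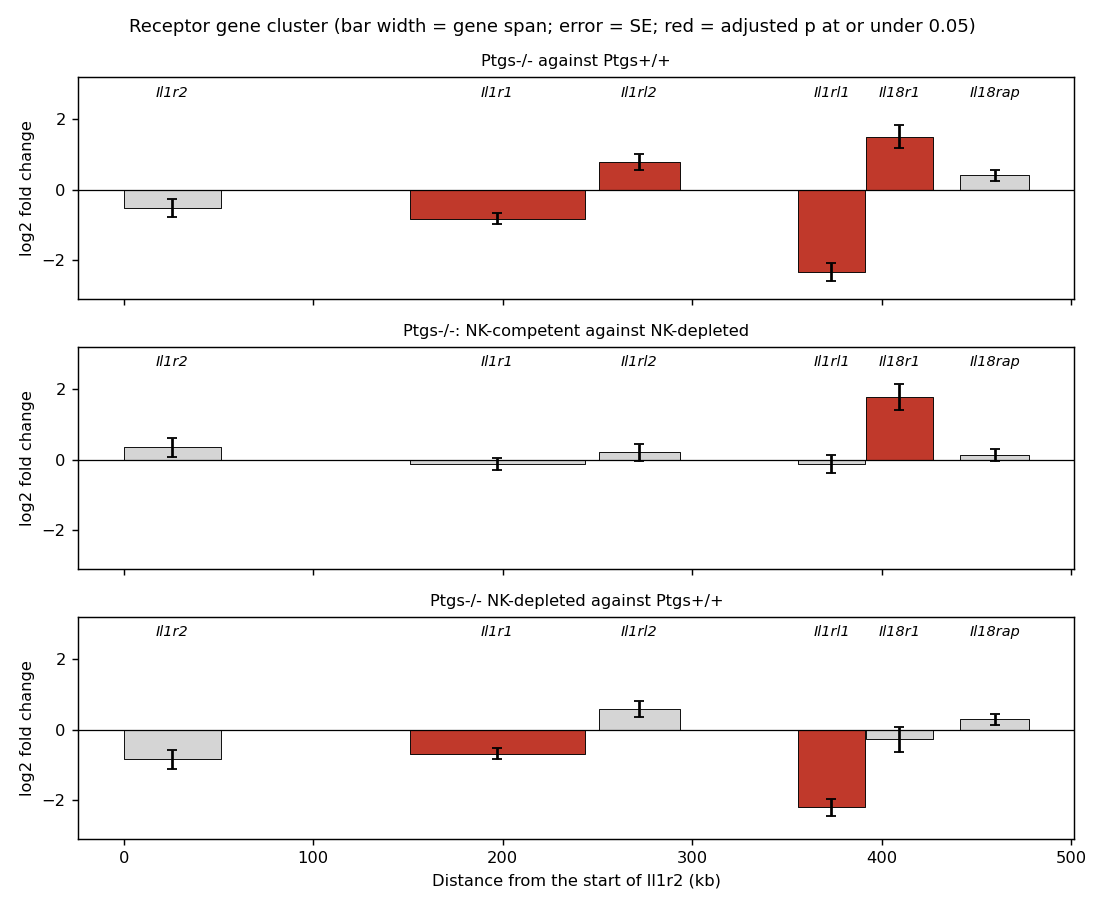
Log2 fold change (vertical axes) of 6 receptor genes against distance in kb from the start of *Il1r2* (horizontal axis), in the 3 comparisons. Bar width is the span of the gene, error bars are SE, and red bars passed at an adjusted p of 0.05 or less (edgeR). In the upper panel *Il1rl1* at -2.32 stands between *Il1rl2* at 0.79 and *Il18r1* at 1.51.

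Other genes of the pathway were counted from written lists. Of 4 further IL-1 family receptor genes tested between genotypes, 3 rose and none fell (median 1.15), against 12.1% of all genes higher. The largest rise was that of *Sigirr*, a receptor that restrains IL-1 and Toll-like receptor signaling, at 1.79 (adjusted p = 0.000164). *Sigirr* was also the 1 of these 4 that passed in depleted against *Ptgs*+/+ tumors, at 2.16. The IL-36 genes *Il1f6*, *Il1f8* and *Il1f5* had at most 1 count per tumor and *Il1f9* had at most 12.

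Among 20 genes of signaling below the receptors, 6 rose and 1 fell between genotypes, against 12.1% of all genes higher and 11% lower, and the list's median was 0.33. The rises included *Irak3*, a kinase-like protein that dampens the pathway (0.88, adjusted p = 0.0366), *Ikbkg*, the regulatory subunit of the IκB kinase (0.74, adjusted p = 0.00659) and *Irak4*, the first kinase at MyD88 (0.46, adjusted p = 0.037). The gene that fell was *Map3k7*, the kinase TAK1 (-0.41, adjusted p = 0.0078). *Myd88* itself (0.31), *Irak1* (-0.01) and *Traf6* (0.36) did not pass. *Ikbkg* and *Map3k7* passed in all 20 settings, *Irak3* in 14 and *Irak4* in 10, and leaving out 1 tumor gave 3 to 8 genes of the list. None of the 20 passed in the NK cell comparison.

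Inflammasomes cut the precursors of IL-1β and IL-18 into active cytokines. Of 15 inflammasome and maturation genes tested, 5 rose and none fell in *Ptgs*-/- against *Ptgs*+/+ tumors (median 0.40), against 12.1% of all genes higher. Macrophage markers (10 of 12 higher) and monocyte markers (5 of 8 higher, 1 lower) moved in the same comparison, and their part in the result was not tested. The largest rises on the list were those of *Nlrp1b*, a sensor (1.83, adjusted p = 0.0123), *Pycard*, the adaptor ASC (1.35, adjusted p = 0.000292), and *Aim2*, a sensor of cytosolic DNA (0.99, adjusted p = 0.0016). *Casp1*, the protease that cleaves both precursors, rose by 0.71 (adjusted p = 0.0168), and the sensor *Nlrp3* was at -0.02 (adjusted p = 0.97). *Nlrp1b* had 13, 6, 14 and 3 counts in *Ptgs*+/+ tumors and 16, 32 and 42 in *Ptgs*-/- tumors. Its call was lost in the first-code libraries (adjusted p = 0.0759). That of *Casp1* was lost there and without *Ptgs*-/- replicate 2 (adjusted p of up to 0.0741). *Pycard* and *Aim2* passed in all 20 settings. These are transcripts, and cleaved cytokine was not measured.

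Of 18 tested genes known to be induced by IL-1, 11 fell, 1 rose and 6 did not pass between genotypes (median -1.19), against 11% of all genes lower and 12.1% higher. *Il6*, a cytokine of acute inflammation, fell by 3.39 (adjusted p = 0.00157), *Mmp9*, a matrix protease, by 3.17, and *Cxcl3*, a neutrophil-attracting chemokine, by 3.06 (adjusted p = 0.0109). *Cxcl3* had 2, 6 and 3 counts in *Ptgs*-/- tumors, at or near the floor, and its call was lost in the first-code libraries (adjusted p = 0.0781). *Il6* CPM was 11.3, 4.60, 4.22 and 7.52 in *Ptgs*+/+ tumors, 0.968, 0.408 and 0.613 in *Ptgs*-/- tumors and 0.643, 1.21 and 2.83 in depleted mice, so all *Ptgs*-/- tumors were below all *Ptgs*+/+ tumors. The gene that rose was *Icam1*, an adhesion molecule (0.69, adjusted p = 0.0143, past in 18 of 20 settings). Of the genes that fell, *Sele* passed in 6 of 19 settings, *Cxcl2* in 16 of 20 and *Ptges* in 17 of 20. *Il6*, *Cxcl1*, *Cxcl5*, *Lcn2*, *Saa3*, *Mmp9* and *Vcam1* passed in every setting in which they were tested. The monocyte chemokine genes *Ccl2* (0.00) and *Ccl7* (0.54) did not pass. Most genes of this list also answer to other inflammatory signals.

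In depleted against *Ptgs*+/+ tumors 7 of the 18 fell and none rose (median -1.09), against 5.87% of all genes lower. *Cxcl5*, a chemokine for neutrophils, was the 1 gene of the list that passed in the NK cell comparison, at -1.26 (adjusted p = 0.0284). Its CPM was 110.4, 116.7, 70.0 and 118.5 in *Ptgs*+/+ tumors, 16.8, 8.78 and 16.7 in *Ptgs*-/- tumors and 34.1, 32.7 and 34.2 in depleted mice. The 3 groups did not overlap, unlike the 2 *Ptgs*-/- groups in *Il1b*. The call in the NK cell comparison held in 11 of 20 settings (-1.40 to -0.99). It was lost with a replicate block (adjusted p = 0.0513), in the first-code libraries (0.0919) and with at least 10 counts in every library (0.0675). It was also lost without any 1 of the depleted tumors (adjusted p = 0.0879 to 0.103), without *Ptgs*-/- replicate 2 (0.0908) or 3 (0.0633), and without *Ptgs*+/+ replicate 1 (0.0571).

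Of 7 tested genes of cells that respond to IL-18 or IL-33, 3 rose and 1 fell between genotypes, against 12.1% of all genes higher and 11% lower. T cell markers (7 of 8 tested higher) and dendritic cell markers (6 of 10 higher) moved in the same comparison, and their part in the result was not tested. *Ccl17*, a chemokine of dendritic cells and macrophages, rose by 4.77 (adjusted p = 0.000117) and *Ccl1*, a chemokine of T and mast cells, by 3.72 (adjusted p = 0.00354). *Ccl1* had 0, 2, 2 and 1 counts in *Ptgs*+/+ tumors, all under the floor, and 8, 20 and 23 in *Ptgs*-/- tumors. *Ccl17* had 13, 4, 4 and 2 counts in *Ptgs*+/+ tumors and 77, 164 and 209 in *Ptgs*-/- tumors. With *Ptgs*+/+ counts at or near the floor, the sizes of both rises are uncertain. *Areg*, an epidermal growth factor receptor ligand, fell by 1.07 (adjusted p = 0.00272). The type 2 cytokine genes *Il5* and *Il13* had at most 1 and 7 counts per tumor, too few to test.

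Marker sums of cells that can make or carry these molecules were set beside the members. The 14 neutrophil markers summed to 282.3 to 348.5 CPM in *Ptgs*+/+ tumors, 56.4 to 118.2 in *Ptgs*-/- tumors and 159.9 to 188.0 in depleted mice, with *Ngp* at or under the floor throughout. Of the 10 neutrophil markers tested, 5 fell between genotypes. In the NK cell comparison *S100a8* (-1.26, adjusted p = 0.00237) and *S100a9* (-1.14, adjusted p = 0.0116) were lower in *Ptgs*-/- tumors of mice with NK cells. The other 8 markers tested did not pass there, with *Csf3r* at 0.19 and *Acod1* at 0.91, and *Retnlg* rose by 1.77 in depleted against *Ptgs*+/+ tumors (adjusted p = 0.0139). The part of neutrophils in the *Il1b* result was not tested.

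The 12 macrophage markers had sums of 2994 to 3582 CPM in *Ptgs*+/+ tumors, 4589 to 7054 in *Ptgs*-/- tumors and 4489 to 4789 in depleted mice. The 8 monocyte markers, of cells that also make IL-1β, summed to 1222 to 1598, 2709 to 3173 and 2130 to 2411 CPM. The part of both in the member results was not tested. Mast cells and basophils are rich in ST2, and their 10 markers summed to 99.9 to 147.0, 48.5 to 251.0 and 163.0 to 271.1 CPM. These sums overlapped between genotypes, none of the 9 markers tested passed in any comparison, and their part in the *Il1rl1* result was not tested. Endothelial markers, whose cells can carry ST2 and IL-1R1, summed to 504.9 to 572.4, 180.9 to 420.1 and 314.4 to 465.8 CPM, and 4 of 10 fell between genotypes. Fibroblast markers, of stromal cells, summed to 8195 to 10887, 13606 to 17349 and 11253 to 14047 CPM. Of these 10 fibroblast markers, 6 rose and none fell between genotypes. The part of both cell types in the falls of *Il1rl1* and *Il1r1* was not tested. Skeletal muscle markers summed to 2547 to 5924 CPM in depleted mice against 23.1 to 404.7 in the other tumors, and their part in the comparisons of that group was not tested.

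**Figure D5:**
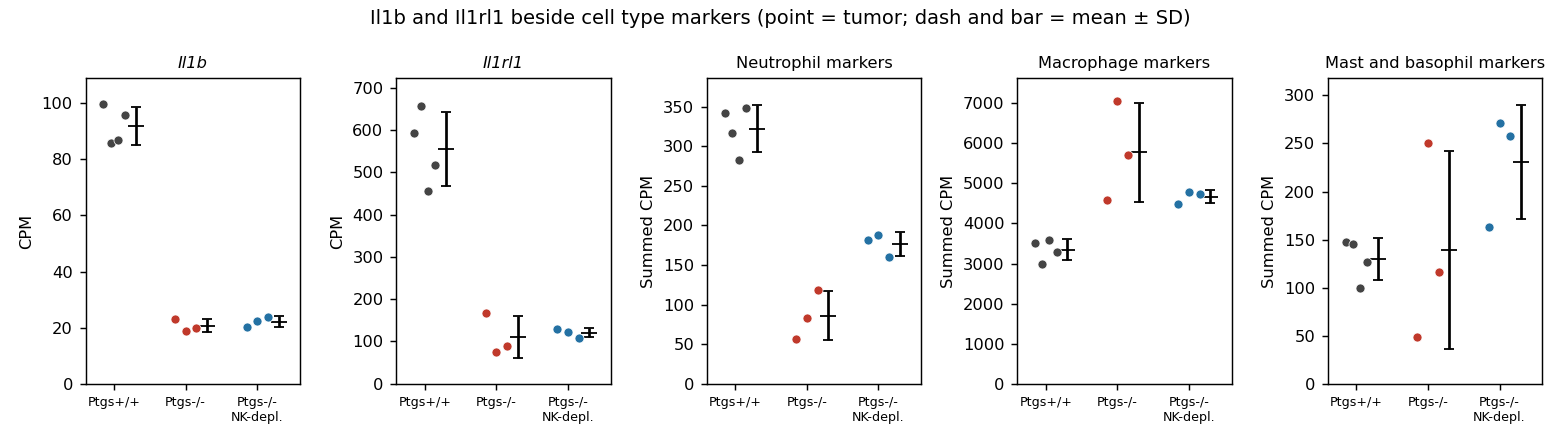
Levels of *Il1b* and *Il1rl1* (CPM) and summed levels of neutrophil, macrophage, and mast cell and basophil markers (summed CPM; linear axes starting at 0) in each tumor, with mean ± SD. Neutrophil sums are 56.4 to 118.2 in *Ptgs*-/- tumors and 159.9 to 188.0 in depleted mice, and *Il1b* is 18.9 to 23.2 and 20.2 to 23.8.

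The genes whose profiles over the 10 tumors lay closest to those of the changed members were found among 10751 genes with a mean of at least 5 CPM, as the root mean square (RMS) difference of log2(CPM + 1) after centering. For *Il1b* they were *Itga7* (RMS 0.214), *Cyp26b1* (0.241) and *Thbs1* (0.245). For *Il1rl1* they were *Nr4a2* (0.169), *Cyp26b1* (0.218) and *Ereg* (0.228). *Cyp26b1*, which encodes a retinoic acid-degrading enzyme, stood near both, with mean levels of 294.4, 63.8 and 66.6 CPM in the 3 groups. The nearest to *Il1r1* was *Incenp* (0.105), the nearest to *Il18* was *Lgals9* (0.0948), and the nearest to *Il18bp* was *Uba7* (0.157). All of these profiles come from the same libraries and are given as a description.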

How the data were processed

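The deposited table held the authors' raw counts, with a column for each tumor. Per the study's methods, QuantSeq 3′ reads were trimmed of their first 12 bases, contaminants and polyG and polyA tails, aligned to GRCm38 with STAR and counted with featureCounts. Use of strand and of molecular identifiers is not given in the sources used here. Of 45706 genes, GENCODE M21 named 45143.

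Counts were tested in edgeR 4.0.16 (R 4.3.3; limma 3.58.1) after filterByExpr (14550 genes) with TMM factors (0.963 to 1.04), by the quasi-likelihood test with Benjamini-Hochberg adjustment, in 1 model of all 10 libraries and 3 comparisons. Ratios were compared by two-sided exact permutation tests. The alternatives included DESeq2 1.42.0. On data simulated for *Ptgs*-/- against *Ptgs*+/+ tumors (14328 genes run), 194 of 200 genes changed by a log2 fold change of 2 were recovered and 11 unchanged genes were called. The changed genes were drawn only from those above a minimum mean count, so this recovery does not cover genes with few counts or smaller changes. Replicates differed by chi-square of 7.41 to 30.1 per degree of freedom, so none was a duplicate. Detection floors cover counting error only.

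The members and gene lists were chosen with earlier results of these data known. Named genes are the members, *Ptgs1*, *Ptgs2*, up to 3 rises and 3 falls per list and the nearest profiles. Others were named for their role, marker values or calls over the settings after these were seen.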

Additional observations from a re-analysis of the deposited data

Results flagged for a closer look

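Levels of the 10 members were searched for a tumor standing apart within the 4 *Ptgs*+/+ tumors, the only group large enough, by Dixon's criterion, which chance meets in about 1 of 20 groups. Both genes that met it did so in *Ptgs*+/+ replicate 4. *Il1r1* was 51.4 CPM there against 70.2 to 71.9 CPM in the other 3 tumors, and without that tumor *Il1r1* still passed in both comparisons with *Ptgs*+/+ tumors. *Il1a* was 0.104 CPM there against 0 in the others, which is 1 read, under the floor, so meeting the criterion says nothing about that gene. Replicate 4 is the *Ptgs*+/+ tumor with the second title code.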

How the results depend on the processing

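Each result was recomputed in up to 19 alternatives, 10 of which left out 1 tumor. *Il1b*, *Il1rl1*, *Il1r1* and *Il18bp* passed between genotypes in all 20 settings, and *Il1b* and *Il1rl1* in all 20 for depleted against *Ptgs*+/+ tumors. *Il18* passed in 15, and *Il1r1* in depleted tumors in 18 (adjusted p = 0.0664 without depleted replicate 1 and 0.0522 without replicate 3). *Il1r2* in depleted tumors passed in 8. Leaving out 1 tumor gave 4 to 6 members between genotypes, 0 to 1 in the NK cell comparison and 2 to 4 for depleted against *Ptgs*+/+ tumors. The size threshold left 2 members between genotypes. For the lists, leaving out 1 tumor was added after seeing the data. It gave, between genotypes, in the NK cell comparison and in depleted against *Ptgs*+/+ tumors, 2 to 3, 0 to 1 and 1 further family receptors, 3 to 8, 0 and 0 to 5 signaling genes, 4 to 6, 0 to 1 and 1 to 4 inflammasome genes, 8 to 13, 0 to 1 and 4 to 8 IL-1 inducible genes, and 4 to 5, 0 and 1 responder genes.

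Deviations of same-numbered tumors from their group means had correlations of -0.24 to 0.36, and those of other tumors of different groups -0.43 to 0.17. With so few tumors per group this does not settle whether the numbers pair them. With a replicate block 5, 0 and 4 members passed, the fourth being *Il1r2* (-0.81, adjusted p = 0.0484), and *Cxcl5* did not pass in the NK cell comparison (-1.26, adjusted p = 0.0513). In the first-code libraries alone 3 signaling and 2 inflammasome genes passed between genotypes, 0 further family receptors and 0 IL-1 inducible genes in the NK cell comparison, and 1 signaling gene in depleted against *Ptgs*+/+ tumors. With at least 10 counts required in every library, 1 responder gene passed between genotypes and 0 in depleted against *Ptgs*+/+ tumors, and 0 further family receptors and 0 IL-1 inducible genes in the NK cell comparison.

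Signs turned for 4 members and 3 ratios, none past its threshold. In the NK cell comparison *Il1rn* was 0.0102 in the first-code libraries and *Il1rl1* 0.0384; without 1 tumor *Il1rn* ran from -0.22 to 0.0101, *Il1r2* from -0.12 to 0.61 and *Il1rl1* from -0.54 to 0.11. *Il33* in depleted against *Ptgs*+/+ tumors was 0.0235 with the code as a term, 0.0482 in the first-code libraries and -0.176 to 0.0668 without 1 tumor. The log2 ratio of *Il1rn* to *Il1b* in the NK cell comparison was 0.0737 in the first-code libraries. Leaving out 1 tumor, the *Il1rn* to *Il1b* difference ran from 2.16 to 2.36 between genotypes, -0.12 to 0.0737 in the NK cell comparison and 2.20 to 2.32 in depleted against *Ptgs*+/+ tumors. That of *Il1r2* to *Il1r1* ran from -0.0568 to 0.48, 0.14 to 0.68 and -0.27 to -0.04, and that of *Il18bp* to *Il18* from 0.38 to 0.71, 0.28 to 0.72 and -0.13 to 0.27. The causes were not tested. *Il1a* is limited by depth.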
